A study of Mus musculus with 4 samples.

Results

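The 10 genes Gata6, Prg4, Alox15, Selp, F5, Ltbp1, Pf4, Slpi, Ptgis and Serpinb2 mark large peritoneal macrophages, and they were read here in liver aspirates, as 10 of the 33696 genes counted. They were chosen on measured values, as leading genes of a macrophage cluster in earlier results of these same libraries, so their height in macrophages is a description of that choice. Male C57BL/6J mice were fed the FPC diet (fructose, palmitate, cholesterol and trans-fat) from 7 weeks of age, and all 4 libraries come from such mice. P-LC24 was sampled at week 24 on 0.05% cholesterol and P-HC24 at week 24 on 1.25% cholesterol. I-LC32 was sampled at week 32 on 0.05% throughout, and I-HC32 at week 32 after 24 weeks on 1.25% and 8 weeks on 0.05%. Below, P-HC24 and I-HC32 are called the high-cholesterol libraries for their diet up to week 24, and P-LC24 and I-LC32 the low-cholesterol libraries. Both libraries of week 32 were on 0.05% when sampled. Each library pooled fine-needle aspiration (FNA) biopsies of the liver, 4 from each of 3 mice, into 12 biopsies, and the animals of week 32 are those of week 24. With 1 library per condition no condition could be tested against another. Diet, mice and handling of a library cannot be told apart.

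Large peritoneal macrophages are the resident macrophages of the peritoneal cavity, and they depend on the transcription factor GATA6 for much of their specific programme. Kupffer cells, the resident macrophages of the liver sinusoids, use other factors and carry markers such as Clec4f. The remaining 9 genes code for lipid mediator enzymes, matrix and adhesion proteins, proteins that control coagulation and proteolysis, and a chemokine. Several of them are better known from other cells, Pf4 and Selp from platelets, Selp from endothelium, and F5 from hepatocytes.

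The gene starts shown next carry the letters bound by GATA factors in 1 case and in another belong to neighbouring genes. The 250 bases before a start were available from RefSeq (GRCm38.p6) for 6 of the 10 genes, in 8 regions, and were searched on both strands for AGATAA, for AGATAG, for TGATAA and for TGATAG. A match stood in 2 of the 8 regions, against 26.5% of all 32851 regions of that length. The Slpi region holds TGATAA at 17 bases before the start, and the other match was AGATAA at 41 bases before the second of 2 Serpinb2 starts, which lie 87 bases apart. No match was found in the regions of Selp, F5, Ltbp1 and Pf4, which says only that these letters are not in these windows. Slpi is printed for its match, which stands in capitals, and Selp and F5 because they are neighbours on chromosome 1, with 1693 bases between the genes in the GRCm39 annotation. The regions are chr2:164356508-164356757 on the minus strand for Slpi, and chr1:164115014-164115263 and chr1:164151585-164151834 on the plus strand for Selp and F5.
Slpi: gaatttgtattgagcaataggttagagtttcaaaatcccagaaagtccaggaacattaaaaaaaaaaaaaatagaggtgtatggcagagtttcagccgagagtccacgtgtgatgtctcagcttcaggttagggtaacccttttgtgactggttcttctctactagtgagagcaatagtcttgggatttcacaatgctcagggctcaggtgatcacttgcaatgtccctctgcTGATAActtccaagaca
Selp: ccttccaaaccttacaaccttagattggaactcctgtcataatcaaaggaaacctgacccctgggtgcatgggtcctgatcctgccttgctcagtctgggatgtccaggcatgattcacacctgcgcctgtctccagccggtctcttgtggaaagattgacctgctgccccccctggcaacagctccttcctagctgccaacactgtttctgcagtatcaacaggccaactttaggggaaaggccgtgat
F5: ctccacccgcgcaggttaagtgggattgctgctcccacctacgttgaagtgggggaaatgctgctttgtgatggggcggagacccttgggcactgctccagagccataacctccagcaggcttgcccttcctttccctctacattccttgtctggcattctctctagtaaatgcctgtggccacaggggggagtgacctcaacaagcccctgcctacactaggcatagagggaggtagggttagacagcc

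The kept cells numbered 4930 in P-LC24 and 6532 in P-HC24 at week 24, and 6919 in I-HC32 and 6977 in I-LC32 at week 32, 25358 in all. They held 38509673 to 77017579 unique molecular identifiers (UMIs) per library. A UMI tags 1 captured transcript. Cells were sorted into classes by raw UMIs of marker genes that include none of the 10. A macrophage carried at least 5 UMIs of C1qa, C1qb and C1qc together and at least 1 of Adgre1 (F4/80). Kept cells with the marker levels of more than 1 of macrophages, B cells and T cells were set apart as mixed-lineage. Levels are given as CPM, the UMIs of a gene summed over the cells of a class and set against all UMIs of these cells, so that 10000 CPM is 1% of the UMIs. Intervals in parentheses are exact 95% intervals, Poisson for levels and ratios and Clopper-Pearson for shares, and they cover counting error only. The Poisson intervals leave out the spread of levels between cells and between mice. Levels whose intervals stand apart thus differ beyond counting error and no more is said by it. Where 4 values follow each other without names, the first pair is week 24 and the second week 32, each with the low-cholesterol library first. Between 17 and 41 cell barcodes were shared by a pair of libraries, and 1 shared barcode was macrophage-gated in both libraries of its pair.

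Macrophage-gated cells fell into a group that carried the genes together and a group that hardly carried them. Of 1214 such cells, 1117 had a UMI of at least 5 of the 10 genes, and 825 had a UMI of all 10. Near the limit were 11 cells with 3 genes, 7 cells with 4, 0 cells with 5 and 3 cells with 6, so that few cells lay in between. Cells with at least 5 of the genes are called positive macrophages below, and since no cell had exactly 5, the same cells had at least 5 of the other 9 whichever gene was left out. In P-LC24 34 of 60 macrophage-gated cells were positive, or 56.7% (43.2–69.4). In P-HC24 it was 419 of 446, or 93.9% (91.3–96.0). In I-LC32 it was 57 of 78, or 73.1% (61.8–82.5), and in I-HC32 607 of 630, or 96.3% (94.6–97.7). After each cell was thinned to 3000 UMIs the shares were 57.2%, 93.5%, 74.1% and 96.1%, with 1, 4, 3 and 4 shallower cells left out. Median depths of the gate were 24004.5, 21630, 22551 and 20706.5 UMIs. Both libraries with a history of high cholesterol had the higher shares, and their intervals did not overlap those of the low-cholesterol libraries.

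**Figure D1:**
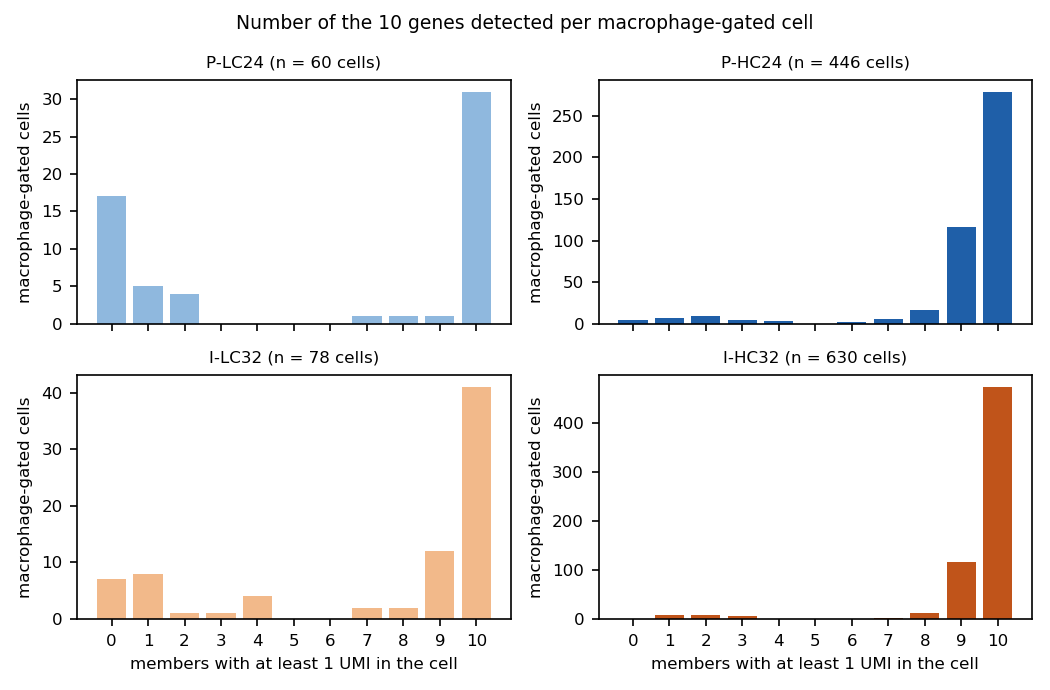
The horizontal axis is the number of the 10 genes with at least 1 UMI in a cell and the vertical axis the number of macrophage-gated cells, with 1 panel per library. The tallest bar of each panel is at 10 genes, lower bars lie at 0 to 4, and no panel has a cell at 5.

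Outside the gate the combination was rare. At least 5 of the genes were found in 0 of 4275 lymphoid cells of P-LC24, which allows a share of up to 0.0702%, in 1 of 5474 of P-HC24, 0 of 6277 of I-LC32 and 7 of 5714 of I-HC32. Of monocytes, 1 cell, in I-HC32, had at least 5, and of dendritic cells, neutrophils, and mast cells or basophils none did in any library. Most other kept cells with at least 5 of the genes were mixed-lineage, 1, 43, 16 and 25 cells from P-LC24 to I-HC32, and 3, 6, 3 and 7 fell in no class. Of the 43 mixed-lineage cells in P-HC24, 38 carried B cell markers and 7 T cell markers. All 25 in I-HC32 and 14 of 16 in I-LC32 carried B cell markers. Whether these droplets held 2 cells was not tested.

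Gata6, the transcription factor of the group, had the lowest level of the 10. Gata6 (ENSMUSG00000005836) lies at chr18:11051565-11086995 on the plus strand of GRCm39, the build of all gene positions given here, with the antisense gene Gata6os on the other strand. Its level in positive macrophages was 83.8 CPM (67.3–103) in P-LC24 and 79.9 (74.3–85.9) in P-HC24 at week 24, and 108 (103–114) in I-HC32 and 112 (95.2–130) in I-LC32 at week 32. The week 32 libraries lay above the week 24 libraries, although the interval of P-LC24 overlapped those of both. A UMI of Gata6 was found in 91.2% (76.3–98.1), 73.3%, 82.5% and 82.7% of the positive cells, where a cell's median was 2 UMIs in P-LC24. Monocytes gave no UMI of Gata6 in 139, 160, 188 and 81 cells, which allows shares of up to 2.16%, 1.88%, 1.60% and 3.70% (3 counts over the cells). These limits concern cells with a UMI, not cells expressing the gene. Monocytes had median depths of 11112 to 12123 UMIs, and in macrophage-gated cells thinned to 3000 UMIs a UMI of Gata6 was found in 13.2%, 19.5%, 21.2% and 25.9% of cells. Neutrophils had none either, in 91, 90, 28 and 16 cells, which allows shares of up to 3.30%, 3.33%, 10.7% and 18.75%. Their median depths were only 2501 to 4160 UMIs, so these zeros say little. Lymphoid cells had a UMI of Gata6 in 0.117% to 0.191% of cells.

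Most macrophage-gated cells of the high-cholesterol libraries in which Gata6 was missed still carried the other genes. Among macrophage-gated cells without a Gata6 UMI, at least 5 of the other 9 genes were found in 112 of 139 cells of P-HC24, or 80.6% (73.0–86.8), and in 105 of 128 of I-HC32, or 82.0% (74.3–88.3). In P-LC24 it was 3 of 29, or 10.3% (2.19–27.4), and in I-LC32 10 of 29, or 34.5% (17.9–54.3). Where Gata6 was seen, at least 5 of the other 9 were there in 31 of 31 cells of P-LC24, 307 of 307 of P-HC24, 502 of 502 of I-HC32 and 47 of 49 of I-LC32. In P-HC24 the other 9 genes summed to 42598 CPM in cells with a Gata6 UMI and 52050 CPM in positive cells without, and in I-HC32 to 45441 and 46323 CPM. In P-LC24 the values were 52866 CPM and, over only 3 cells, 44193, and in I-LC32 43629 and, over 10 cells, 27035. The sum was lower without a Gata6 UMI in the low-cholesterol libraries, over these few cells, and higher in the others. Slpi made up most of it, with 31140 CPM with and 15523 without a Gata6 UMI in I-LC32. In P-HC24 Slpi had 30453.5 CPM with and 39756 in positive cells without. There Alox15, F5, Pf4 and Ptgis were higher without a Gata6 UMI, and Prg4, Ltbp1, Selp and Serpinb2 lower. In I-LC32 Pf4, Selp and Serpinb2 were higher without a Gata6 UMI, and Prg4, Alox15, F5, Ltbp1 and Ptgis lower. Of the 49 cells of I-LC32 with a Gata6 UMI 47 were positive, so the sets differ in this too.

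Alox15, a lipoxygenase that oxidises polyunsaturated fatty acids, lies at chr11:70234970-70242858 on the minus strand, with no overlapping gene. Positive macrophages held it at 1873 CPM (1792–1958) in P-LC24 and 1950 (1922–1978) in P-HC24 at week 24, and 1999 (1974–2023) in I-HC32 and 1854 (1784–1925) in I-LC32 at week 32. These levels lay close together, and each interval overlapped that of at least 1 other library. Alox15 was also seen in mast cells or basophils, in 11 of 51 cells of P-HC24, or 21.6% (11.3–35.3), and in 11 of 47 of I-LC32, or 23.4% (12.3–38.0). The share in lymphoid cells was 3.75% and 0.701% in these libraries, at median depths of 6897 and 6806 UMIs against 4575 and 4991 in mast cells or basophils. P-LC24 had 2 of 63 such cells with a UMI and I-HC32 2 of 27.

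Ptgis, the prostacyclin synthase, lies at chr2:167033725-167083018 on the minus strand and is overlapped by 4 genes of the opposite strand. Positive macrophages held it at 554 CPM (510–600) in P-LC24 and 703 (686–720) in P-HC24 at week 24, and 783 (767–798) in I-HC32 and 729 (686–775) in I-LC32 at week 32. P-LC24 was lowest and its interval stood apart from the others. Outside the gate Ptgis had 0 UMIs in dendritic cells of all 4 libraries and a UMI in at most 1.72% of lymphoid cells.

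Prg4, which codes for the lubricating surface protein lubricin, lies at chr1:150325163-150342009 on the minus strand, and Tpr overlaps it on the other strand. Every positive macrophage of the 4 libraries had a UMI of Prg4. Its level was 4476 CPM (4350–4605) in P-LC24 and 3340 (3303–3378) in P-HC24 at week 24, and 4857 (4819–4895) in I-HC32 and 3897 (3796–4000) in I-LC32 at week 32. No intervals of counting error overlapped, but the spread between cells is not in them. The order of the libraries was opposite at the 2 times, with P-LC24 above P-HC24 at week 24 and I-HC32 above I-LC32 at week 32. Both libraries of week 32 were on the same diet when sampled and differ in their earlier diet. Over cells its coefficient of variation was 0.362, 0.391, 0.429 and 0.344, lower than that of the other 9 genes in each library. Counting noise was not taken out, and it raises the coefficient of genes with few UMIs.

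Ltbp1 codes for a protein that holds latent TGF-beta in the matrix and lies at chr17:75312519-75699507 on the plus strand. In positive macrophages its level was 1414 CPM (1343–1487) in P-LC24 and 1175 (1153–1197) in P-HC24 at week 24, and 1660 (1638–1682) in I-HC32 and 1418 (1358–1481) in I-LC32 at week 32. P-LC24 and I-LC32 overlapped, with P-HC24 below and I-HC32 above them. Outside the gate Ltbp1 was found in 14 of 51 mast cells or basophils of P-HC24, or 27.5% (15.9–41.7), where 1.02% of lymphoid cells had a UMI. The other libraries had 4 of 63, 2 of 47 and 2 of 27 such cells with a UMI.

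Selp, the adhesion receptor P-selectin, lies at chr1:163942833-163977595 on the plus strand, just before F5. Its level in positive macrophages was 353 CPM (318–391) in P-LC24 and 335 (324–347) in P-HC24 at week 24, and 440 (429–451) in I-HC32 and 370 (339–402) in I-LC32 at week 32. I-HC32 lay above the rest, which overlapped in part. The 7 platelet markers summed to 54.6 CPM in P-LC24 and 2.99 in P-HC24 at week 24, and 1.86 in I-HC32 and 1.38 in I-LC32 at week 32, and the Ppbp UMIs of P-LC24, 34.9 CPM, lay in 2 of its 34 positive cells. In P-LC24 13.6% of all Selp UMIs lay in lymphoid cells, where 59 of 4275 cells had one.

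F5, coagulation factor V, was shared with monocytes and neutrophils. It lies at chr1:163979289-164047846 on the plus strand and overlaps Gm16588 on that strand, as Ltbp1 overlaps Gm6276. Its level in positive macrophages was 1000.3 CPM (941–1062) in P-LC24 and 698 (682–716) in P-HC24 at week 24, and 951 (934–968) in I-HC32 and 875 (827–924) in I-LC32 at week 32. P-HC24 was lowest, with an interval apart from the rest. In monocytes a UMI was found in 35.3% (27.3–43.8), 31.9% (24.7–39.7), 42.0% (34.9–49.4) and 40.7% (29.9–52.2) of cells, at 68.2, 84.9, 102 and 87.7 CPM. In lymphoid cells of the same libraries the share was 0.421%, 0.767%, 0.430% and 2.38%. Thinned to 3000 UMIs, the shares were 15.3%, 14.7%, 20.01% and 18.9% in monocytes and 0.251%, 0.387%, 0.208% and 0.930% in lymphoid cells. Neutrophils held F5 at 230 CPM in P-LC24 and 255 in P-HC24 at week 24, and 155 in I-HC32 and 238 in I-LC32 at week 32, above the monocytes of each library. Only 28 neutrophils of I-LC32 and 16 of I-HC32 were counted.

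Serpinb2, an inhibitor of plasminogen activators, lies at chr1:107428593-107463208 on the plus strand and overlaps Serpinb10 on the same strand, so reads of these 2 could be confused. In positive macrophages its level was 1456 CPM (1384–1531) in P-LC24 and 1011 (991–1032) in P-HC24 at week 24, and 1320 (1300–1340) in I-HC32 and 1169 (1114–1226) in I-LC32 at week 32. No intervals overlapped. As for Prg4, the low-cholesterol library was higher at week 24 and lower at week 32. In monocytes a UMI was found in 2.13% to 12.3% of cells.

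Slpi, a secreted inhibitor of neutrophil elastase, outweighed the other 9 genes together. It lies at chr2:164195990-164231015 on the minus strand and overlaps Matn4 and Mir7678 on the same strand. Its level in positive macrophages was 37708 CPM (37339–38079) in P-LC24 and 32640 (32525–32756) in P-HC24 at week 24, and 30642 (30547–30738) in I-HC32 and 30682 (30397–30968) in I-LC32 at week 32. The week 32 libraries overlapped and P-LC24 was highest, but these intervals leave out the wide spread between cells given below. Slpi made up 72.1%, 72.7%, 70.1% and 67.1% of the UMIs of the 10 genes in these cells. All 10 genes together were 5.23%, 4.49%, 4.38% and 4.57% of all UMIs of a positive macrophage.

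Levels of Slpi differed widely between cells. In P-HC24 the middle 50% of the positive cells spanned 1477 to 55418 CPM around a median of 22427. In I-HC32 they spanned 1924 to 49622 around 18674, in I-LC32 555 to 55200 around 18068, and in P-LC24 8363 to 48411 around 37492. The coefficients of variation, which Gata6 with its few UMIs matched at 1.05 in P-HC24, were 0.80 and 1.03 at week 24, for P-LC24 and P-HC24, and 1.09 and 1.08 at week 32. Below 1000 CPM were 3 of 34, 88 of 419, 17 of 57 and 135 of 607 positive cells, and at 50000 CPM or more were 8, 117, 15 and 152. At its highest Slpi took 15.99% of the UMIs of a single cell, in I-HC32.

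**Figure D2:**
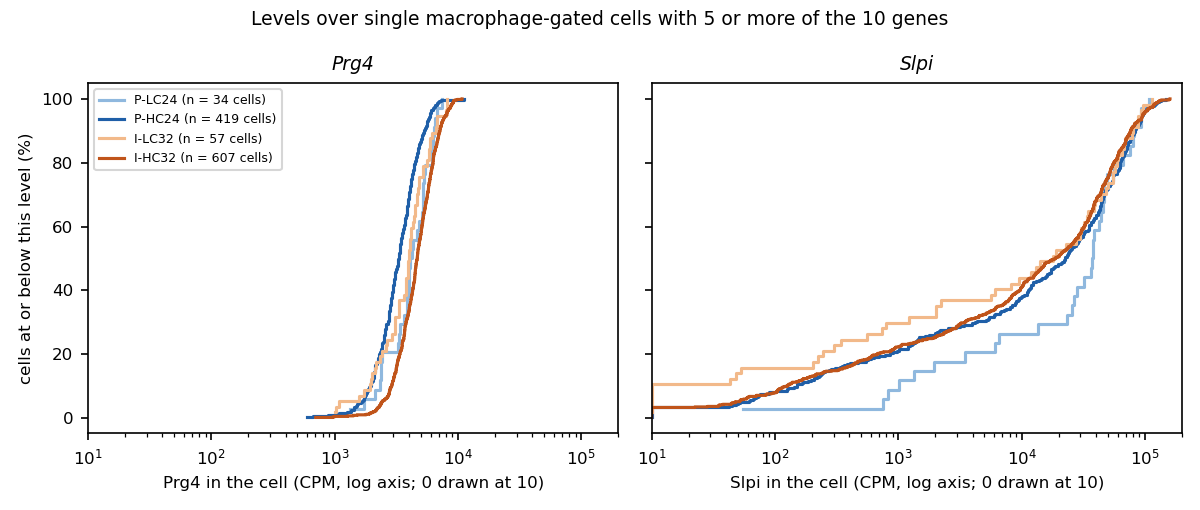
The horizontal axes give the CPM of Prg4 and of Slpi in a single positive macrophage on a log scale, and the vertical axis gives the percent of cells at or below that level, with 1 line per library. The Prg4 lines are steep, and the Slpi lines run over several orders of magnitude, with 88 of 419 cells of P-HC24 and 135 of 607 of I-HC32 below 1000 CPM.

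Slpi was also a neutrophil gene in these libraries. A UMI was found in 90 of 91 neutrophils of P-LC24, 86 of 90 of P-HC24, 25 of 28 of I-LC32 and 16 of 16 of I-HC32, at 2497, 2915, 1948 and 1506 CPM. These levels lay below those of positive macrophages in every library. In monocytes the level was 157, 235, 210 and 156 CPM, with a UMI in 41.7% (33.4–50.4), 60.6% (52.6–68.2), 58.0% (50.6–65.1) and 72.8% (61.8–82.1) of cells.

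Pf4, a heparin-binding chemokine known from platelet granules, lies at chr5:90918479-90922110 on the plus strand. In positive macrophages its level was 3384 CPM (3274–3497) in P-LC24 and 2967 (2933–3003) in P-HC24 at week 24, and 2915 (2885–2944) in I-HC32 and 2689 (2605–2775) in I-LC32 at week 32. P-LC24 was highest and I-LC32 lowest. In macrophage-gated cells that were not positive Pf4 had 243, 138, 127 and 109 CPM, the highest level of the 10 genes in all libraries but I-HC32, where F5 had 131 CPM.

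**Figure D3:**
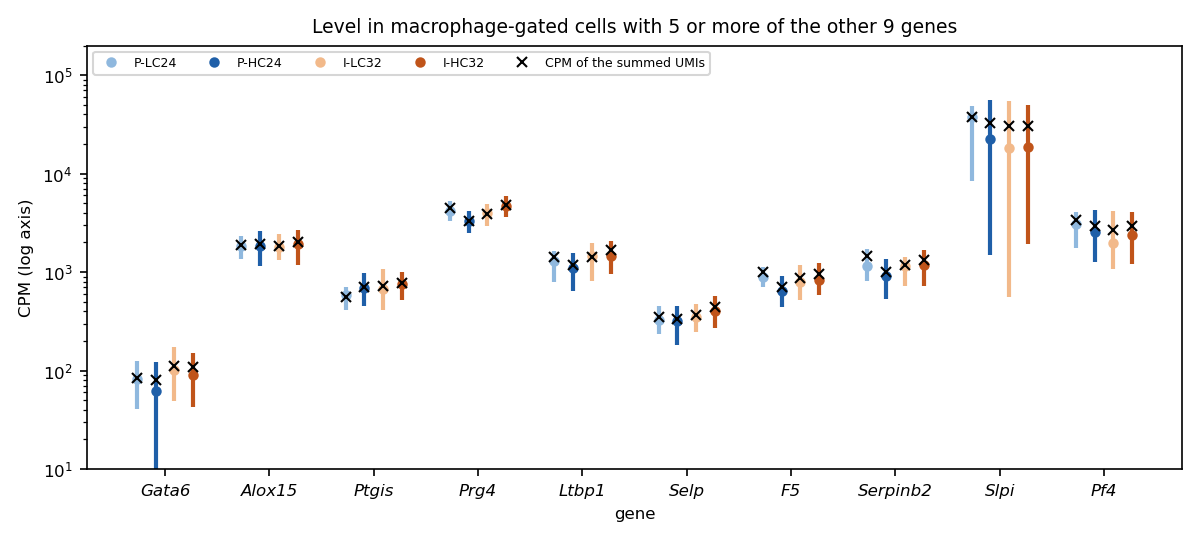
The vertical axis is the level in positive macrophages in CPM on a log axis, for each gene and library. Dots are medians over cells, bars the range between the quartiles (cut off at 10 CPM) and crosses the CPM of the summed UMIs. Slpi stands highest with the longest bars and Gata6 lowest, and the medians of Slpi run from 18068 CPM in I-LC32 to 37492 in P-LC24.

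Prg4, Ltbp1, Selp and F5 varied together from cell to cell, a set that was picked after the correlations had been seen. Spearman correlations of their CPM over single positive macrophages were 0.33 to 0.54 for the 6 pairs in the 34 cells of P-LC24, 0.41 to 0.50 in the 419 of P-HC24, 0.29 to 0.60 in the 57 of I-LC32 and 0.26 to 0.42 in the 607 of I-HC32. The other 39 pairs had medians of 0.10, -0.01, 0.05 and -0.01. The highest of these 39 was 0.59, for Gata6 and Selp in P-LC24, and the same pair had 0.13 in P-HC24, 0.03 in I-HC32 and -0.0022 in I-LC32. Some pairs outside the set passed its lowest value, Ltbp1 and Pf4 at 0.38, Prg4 and Slpi at 0.36 and Alox15 and Ptgis at 0.34 in P-LC24, and Alox15 and Prg4 at 0.30 in I-LC32. Slpi had a median correlation with the other 9 genes of -0.08 to -0.10. The cells of a library share their pool and their free RNA, and depth enters each CPM. Prg4 had correlations of 0.10, -0.28, -0.21 and 0.01 with the total UMIs of a cell, and F5 of 0.14, -0.01, -0.07 and -0.01.

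Across cell classes the 10 genes had the profile of the gate, which their choice from a macrophage cluster of these libraries had fixed in advance. Over 32 profiles, 8 classes in each of 4 libraries, the correlation of a gene with the mean of the 10 ran from 0.76 for F5 to 0.97 for Ptgis, on log2(CPM + 1). Each of the 10 is part of that mean, which raises its correlation, while other genes are not. Among 15083 other genes the closest were C1qc (0.97), which is a gate gene, Gm20619 (0.96), Platr26 (0.95), Pgap4 (0.95) and Hhipl1 (0.95). Hhipl1 had only 105 UMIs in all kept cells, and libraries and depth are shared by these profiles.

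**Figure D4:**
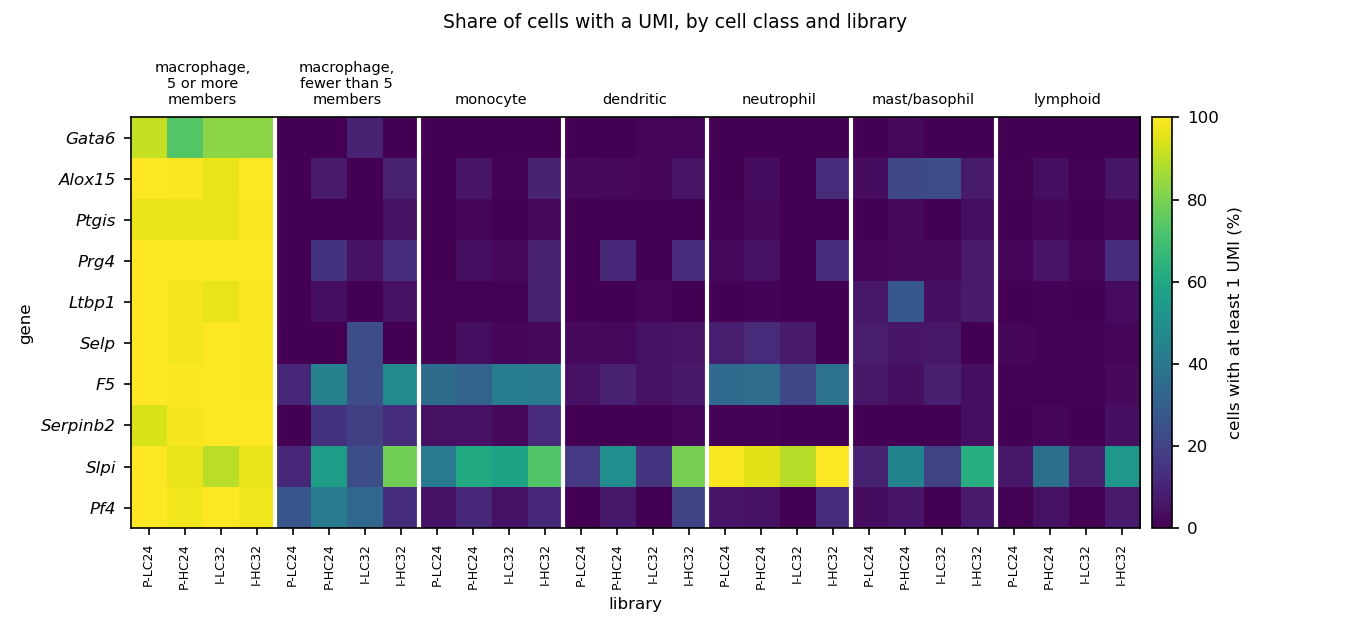
Rows are the 10 genes, columns the 4 libraries within 7 sets of cells, and the colour is the percent of cells with at least 1 UMI. All genes are bright in positive macrophages, F5 reaches 31.9% to 42.0% in monocytes, and Slpi is high in neutrophils and, in the 2 high-cholesterol libraries, in 36.8% and 53.2% of lymphoid cells.

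Lymphoid cells, which should lack these genes, carried them at low levels. In lymphoid cells Slpi had 12.3 CPM in P-LC24 and 62.8 in P-HC24, with a UMI in 6.32% and 36.8% of cells. At week 32 it had 86.0 CPM in I-HC32 and 15.1 in I-LC32, with a UMI in 53.2% and 8.54%. A share in another class at or below these is read as background. In P-HC24 the 10 genes had Slpi at 71.5% and Prg4 at 7.57% of their UMIs in lymphoid cells, and 72.7% and 7.44% in positive macrophages. In I-HC32 it was 64.3% and 11.5% in lymphoid cells and 67.1% and 10.6% in positive macrophages. The lesser genes kept less to these proportions, with Selp at 1.55% in lymphoid cells of P-HC24 against 0.747% in positive macrophages and Ltbp1 at 1.35% against 2.62%. In P-LC24 Selp made up 9.89% in lymphoid cells and 0.675% in positive macrophages. Neutrophils and monocytes departed from these proportions. F5 made up 24.3% of the UMIs of the 10 genes in monocytes of P-HC24 and 29.9% in those of I-HC32, against 1.56% and 2.08% in positive macrophages. In dendritic cells the share with a Slpi UMI at 3000 UMIs per cell was 8.30%, 13.9%, 3.38% and 23.9%, against 2.82%, 17.4%, 3.88% and 25.6% of lymphoid cells, so that it lay above lymphoid cells in P-LC24 and below them in the other 3 libraries. In monocytes the share at 3000 UMIs was 34.6% and 35.2%, above lymphoid cells.

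In all kept cells together every one of the 10 genes was higher in the high-cholesterol library at both times. For the comparison of P-HC24 with P-LC24 (Prog) the log2 ratios ran from 1.78 (1.70–1.86) for F5 to 2.90 (2.78–3.02) for Ptgis, with a median of 2.31. For I-HC32 with I-LC32 (Int) they ran from 2.39 (2.19–2.60) for Gata6 to 2.83 (2.80–2.87) for Prg4, with a median of 2.65. A gene entered the comparison over all genes where a UMI was seen in 10% or more of the cells of 1 library and both together held at least 100 UMIs. By this filter Alox15, Prg4, Slpi and Pf4 entered in Prog and all but Gata6 in Int, and the 4 and the 9 that entered were at least 1.2-fold higher. Of 7069 genes compared in Prog, 16.5% were at least 1.2-fold higher and 47.5% lower, and of 7740 in Int, 13.3% were higher and 12.2% lower. Genes that entered through the library in which they are high had to differ, so these counts support nothing. In sums over all kept cells, fewer cells of a type and less RNA per cell cannot be told apart.

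Macrophage-gated cells were 1.22%, 6.83%, 1.12% and 9.11% of kept cells, and more of them were positive than not in every library. Positive cells were 0.690% (0.478–0.962) of the kept cells in P-LC24 and 6.41% (5.83–7.04) in P-HC24, a ratio of 9.30 (log2 3.22, 2.71–3.77). In I-LC32 they were 0.817% (0.619–1.06) and in I-HC32 8.77% (8.12–9.46), a ratio of 10.7 (log2 3.42, 3.03–3.84). Macrophage-gated cells that were not positive numbered 26, 27, 21 and 23, and their share of kept cells had log2 ratios of -0.35 (-1.18 to 0.48) in Prog and 0.14 (-0.78 to 1.07) in Int. Both intervals include 0 and are wide. The macrophage gate held 65.3% to 97.5% of the UMIs of a gene, the lowest being F5 in I-LC32, where mixed-lineage cells held 19.6%.

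Within the macrophage gate the ratios were small. In Prog Alox15 had a log2 ratio of 0.37 (0.30–0.43) and Ptgis of 0.65 (0.53–0.78), and the other 8 lay within 1.2-fold. In Int 9 genes were at least 1.2-fold higher, from Slpi at 0.30 (0.28–0.31) to Prg4 at 0.62 (0.58–0.66), and Gata6 had 0.24 (0.01–0.48). None was 1.2-fold lower. The counts rest on the scaling, since the 2 higher in Prog became 7 relative to the median ratio of all genes and 8 by the mean of single-cell CPM, and the 9 in Int became 4 by mean UMIs per cell. Of 7521 genes compared within the gate in Prog 16.4% were higher and 48.1% lower, and of 8421 in Int 14.4% were higher and 37.0% lower, with medians of -0.24 and -0.14 over all these genes. The share of positive cells in the gate differed between the libraries, and these ratios hold that share.

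Among positive macrophages alone the ratios of Int were smaller, and in Prog 4 genes were lower in the high-cholesterol library. This set of cells was added after the data were seen. In Prog the log2 ratios of Serpinb2, F5, Prg4 and Ltbp1 were -0.53 (-0.60 to -0.45), -0.52 (-0.61 to -0.42), -0.42 (-0.47 to -0.38) and -0.27 (-0.35 to -0.19), and Ptgis had 0.34 (0.22–0.47). In Int Prg4 had 0.32 (0.28–0.36) and no other gene passed 1.2-fold. Of 7144 genes compared in these cells in Prog 20% were higher and 39.0% lower, and of 8158 in Int 16.1% were higher and 28.3% lower, with medians of -0.14 and -0.09. The 4 of 10 lower in Prog stand beside a background of 39.0%. P-LC24 rests on 34 positive cells, whose median depth was 29066.5 UMIs against 21572 in P-HC24, and the part of depth in these ratios was not tested.

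**Figure D5:**
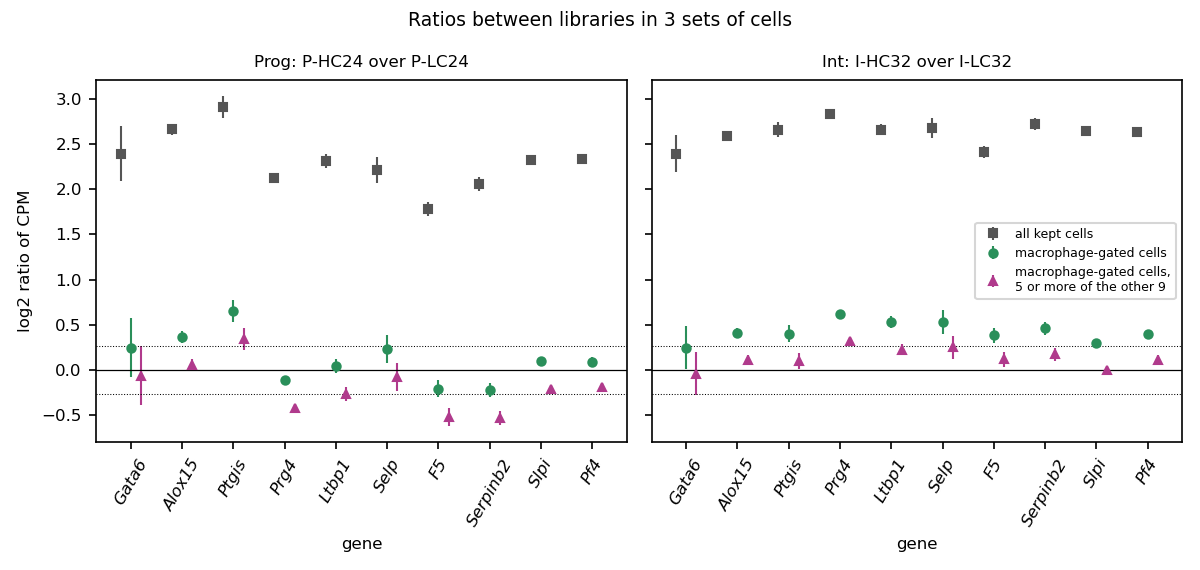
The vertical axis is the log2 ratio of CPM, high-cholesterol over low-cholesterol library, for the 10 genes in Prog and Int. Bars are exact 95% intervals for counting error. Squares are all kept cells, circles macrophage-gated cells and triangles positive macrophages, and the dotted lines mark 1.2-fold. Squares lie at 1.78 to 2.90 and triangles between -0.53 and 0.34.

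A list of 20 other genes known from peritoneal macrophages summed in positive macrophages to 17894 CPM in P-LC24 and 16777 in P-HC24 at week 24, and 19347 in I-HC32 and 17552 in I-LC32 at week 32. The sums were 754, 5019, 4254 and 4719 CPM in macrophage-gated cells that were not positive, 1569, 1847, 1710 and 2832 in monocytes and 112, 108, 101 and 166 in lymphoid cells. UMIs were found for 19 of the 20 genes in positive macrophages of each library and for 17 to 20 in lymphoid cells, so this count sets neither apart. Fn1, fibronectin, had 8313, 6505, 7420 and 7918 CPM in positive macrophages, and 154, 4299, 3553 and 3964 CPM in the gated cells that were not positive. The lipid chaperone Fabp4 had 2067, 1689, 1182 and 1795 CPM in positive macrophages. Saa3, an acute-phase protein, had 1251, 1762, 2015 and 1987 CPM, and Thbs1, thrombospondin, 1872, 1729, 1231 and 1394. Cxcl13, a B cell chemokine, stood at 45.2 CPM in P-LC24 and at 639, 944 and 856 CPM in the other 3 libraries. Cxcl13 was named after its values were seen.

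Of 12 Kupffer cell markers 7 to 9 had UMIs in positive macrophages, with sums of 804, 1115, 1180 and 1475 CPM, against 1576, 420, 1404 and 353 CPM in macrophage-gated cells that were not positive. Clec4f, Cdh5 and C6, named after their values were seen, had 0 UMIs in positive macrophages of every library. These zeros were not particular to positive cells. In gated cells that were not positive, Clec4f had 0 UMIs in P-HC24, I-LC32 and I-HC32, Cdh5 in P-HC24 and I-HC32, and C6 in P-HC24 and I-LC32. Marco, also named after its values were seen, had UMIs in positive macrophages and 0 in the other gated cells of every library. Cd5l, a scavenger protein that other resident macrophages carry as well, had 697, 736, 921 and 977 CPM in positive macrophages. Mesothelial markers summed to at most 0.387 CPM, those of stellate cells and fibroblasts to at most 0.0774 and those of eosinophils to at most 2.07. Endothelial markers summed to 2.83 to 9.65 CPM, with Pecam1 at most 8.96, and hepatocyte markers to 6.59 to 11.2, with Alb at most 5.12. The 3 B cell markers summed to 10.3 to 20.5 CPM, with Cd79a at 6.59 to 9.52, and the 3 T cell markers to 1.38 to 2.83, with Cd3d at most 2.83. Dendritic markers summed to 0.942 to 18.6 CPM and monocyte markers to 83.0 to 112, with Ccr2 at 1.39 to 31.1. Neutrophil markers differed by week, at 646 and 629 CPM in P-LC24 and P-HC24 and 112 and 98.3 CPM in I-LC32 and I-HC32. S100a8 alone stood at 277, 228, 17.9 and 14.6. This was not particular to positive macrophages, since the neutrophil markers summed to 139, 137, 21.7 and 4.39 CPM in lymphoid cells. In monocytes they summed to 530, 2815, 214 and 93.8 CPM. The part of these markers in the levels of Slpi was not tested.

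Macrophage-gated cells that were not positive carried other genes. Small peritoneal macrophage markers, a list of 8, summed in them to 938 CPM in P-LC24 but 26327 in P-HC24, and at week 32 to 29177 in I-HC32 and 14699 in I-LC32. Retnla, a secreted resistin-like protein of alternatively activated macrophages, had 24394 CPM in P-HC24, 27013 in I-HC32, 13068 in I-LC32 and 0 UMIs in the 26 cells of P-LC24. It had a UMI in 16 of 27 cells of P-HC24, 20 of 23 of I-HC32 and 6 of 21 of I-LC32. Ccr2, the chemokine receptor of inflammatory monocytes, had 439, 867, 664 and 902 CPM from P-LC24 to I-HC32, and the mannose receptor Mrc1 365, 709, 642 and 699. In P-LC24 these cells had dendritic markers at 252 CPM, with Clec9a in 7 of 26 cells. Kupffer markers stood there at 1576 CPM, with Id3 at 588, Cd5l at 418 in 8 of the 26 cells, and Clec4f at 11.9. The 26 cells held 336981 UMIs in all, so the level of Clec4f rests on few UMIs. In the other libraries dendritic markers were at 2.45 to 11.7 CPM. In positive macrophages the list of 8 summed to 123, 493, 234 and 133 CPM, and in monocytes to 831, 2134, 1684 and 6854 CPM. The gated cells that were not positive also had monocyte markers at 742, 945, 760 and 927 CPM, and Ccr2 is on both lists. Their endothelial markers summed to 231, 5.06, 80.9 and 5.85 CPM.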

How the data were processed

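Non-parenchymal liver cells from fine-needle aspirates were profiled by 10x Chromium 3′ v3.1 single-cell RNA-seq in 4 libraries, 1 per condition. The authors deposited raw UMI count matrices, made with Cell Ranger (9.0.1) against GRCm39, and the submitters' notes also name Seurat (5.3). The doublet caller is not given in the sources used here. From the deposited counts, cells with at least 500 UMIs, at least 300 genes and at most 10% mitochondrial UMIs were kept. Genes seen in under 3 cells were left out of these cell filters only. Scrublet scores (scanpy 1.11.5) were ranked and the top cells, 0.8% per 1000 cells, taken out as doublets. Classes were gated on raw marker UMIs in a fixed order, and mixed-lineage cells entered none. Library totals ranged from 50941106 to 89257239 UMIs. Levels are CPM of summed UMIs, and ratios carry exact 95% Poisson intervals (scipy 1.17.1). The interval and ratio code was tested on simulated data. With 1 library per condition no test was made. Named were all 10 genes, the 4 highest of the other peritoneal list, the highest gene of each other list, and the 5 genes most correlated with the mean profile. Genes named beyond this rule were chosen after their values were seen. The members and all lists were chosen with earlier results of these data known. Alternatives changed the mitochondrial limit, gates, filters, scaling and fold.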

Additional observations from a re-analysis of the deposited data

Results flagged for a closer look

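Prg4 had opposite differences at the 2 times in positive macrophages, with a log2 ratio of -0.42 in Prog and 0.32 in Int. It alone passed 1.2-fold in both, but the turn of sign was not particular to it. Of the 10 genes 8 had ratios below 0 in Prog and 8 had ratios above 0 in Int. Serpinb2, F5, Ltbp1 and Pf4 turned in the same direction as Prg4. The difference between the ratios of Prog and Int was not tested, since each condition is 1 library.

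Barcodes with at least 5 of the 10 genes also lay outside the cells compared. In P-HC24 11 such barcodes failed the mitochondrial limit, 16 were removed by doublet score, 43 were kept as mixed-lineage and 6 were kept in no class. In I-LC32 5 failed the mitochondrial limit, 4 were removed by doublet score and 16 were mixed-lineage. In I-HC32 100 failed the mitochondrial limit, of which 80 also met the macrophage gate, 73 were removed by doublet score, 25 were mixed-lineage and 7 were in no class. The barcodes that failed the mitochondrial limit had median depths of 4637, 5535 and 4248.5 UMIs in P-HC24, I-LC32 and I-HC32, and those removed by doublet score 41726, 44969.5 and 30528 UMIs.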

How the results depend on the processing

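Of the values and counts that answer a comparison, 117 kept their size under an alternative and 19 moved, and of the other values 158 kept it, 161 moved and 1 reversed. With a mitochondrial limit of 5% the macrophage share was 11.9% in P-HC24, 11.4% in I-HC32 and 1.92% in I-LC32, and 9 genes rather than 4 were higher in Prog in all kept cells. With at least 20 UMIs and no minimum share it was 10. Without macrophage-gated cells only 1 gene entered in Prog and 2 in Int, and those that entered were higher. All 10 genes had ratios above 0 there, with median log2 ratios of 3.78 in Prog and 0.79 in Int. The interval of Gata6 in Int included 0 (-0.24 to 0.76). Cells outside the gate still included mixed-lineage cells. These held 0.135% to 5.88% of a gene's UMIs in P-LC24 and 9.13% to 14.5% in P-HC24. At week 32 they held 14.3% to 27.9% in I-LC32 and 3.74% to 4.73% in I-HC32. Their part in the ratios was not tested. Of the calls over all genes outside the gate 23.0% were higher in Prog and 54.7% in Int. With the gate on C1q alone 93.6% of gated cells of I-HC32 carried at least 5 genes. Within the gate in Prog, where 2 genes were higher and 0 lower, 7 were higher relative to the median ratio of all genes, 8 by the mean of single-cell CPM and 1 at 1.5-fold, 2 were lower by mean UMIs per cell, and with at least 20 C1q UMIs 1 was higher and 2 lower. In Int, where 9 were higher, it was 4 by mean UMIs per cell and 1 at 1.5-fold. In positive macrophages, an alternative chosen after seeing the data, 1 was higher and 4 lower in Prog and 1 higher in Int, and the Int log2 ratio of Slpi turned from 0.30 to -0.0019. The cause was not tested. Of the calls over all genes in all kept cells, 25.7% were higher in Prog, against 63.6% by mean UMIs per cell and 53.6% relative to the median, and 52.2% in Int, against 96.8% by mean UMIs per cell. Within the gate it was 25.4% in Prog and 28% in Int, against 49.9% and 49.7% relative to the median and 13.6% in Int by mean UMIs per cell. No paired analysis was possible because each condition is 1 library and the labels give no replicate numbers, and no replicate could be left out. The number of positive cells, 34 in P-LC24, limits the precision of its levels.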
